A study of Mus musculus with 8 samples.

Results

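The BRG1 peaks described here lie away from gene starts and close to one another. A peak of the pooled BRG1 list was taken on chromosomes 1 to 19 where it overlapped a peak in each of 3 BRG1 replicates, called reproducible, and lay more than 2 kb from every GENCODE transcription start site (TSS), called distal. Distal reproducible peaks separated by gaps of at most 12.5 kb were stitched, and those in stitched groups of 3 or more were kept. The rule left 349 peaks in 103 groups, out of 82669 pooled BRG1 peaks, of which 81327 lay on chromosomes 1 to 19, 21134 were reproducible there and 6392 were also distal. The clustered peaks were thus 5.46% of the distal reproducible peaks, against 970 (15.2%) in groups of 2 and 5073 (79.4%) that stood alone, called isolated. Because the members were chosen by measured BRG1 peaks, their BRG1 values are given as description, with no test. The count rested on requiring all 3 BRG1 replicates, since 685 peaks met the rule without replicate 2 and 689 without replicate 3.

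BRG1 is the ATPase that drives SWI/SNF chromatin remodelling complexes, which slide or evict nucleosomes and so open DNA to transcription factors. PBRM1, also called BAF180, is the bromodomain subunit that marks the PBAF form of the complex. Distal sites bound by remodelers often lie in enhancers, and several such sites on one stretch of chromatin are commonly stitched together to find large regulatory domains. No histone mark was used here, so the groups are called groups of BRG1 peaks and not enhancers.

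All libraries were ChIC-Seq of WT mouse uterine stroma, as primary stromal cells taken on Day 4, in which an antibody carries micrococcal nuclease to its target and the released fragments are sequenced. There were 3 libraries with an antibody against Brg1 and 3 with one against Pbrm1, each with its own peak list, besides a list called on the pooled fragments of each antibody, and 2 IgG libraries were not analysed here. The mice were 8 to 12 weeks of age and untreated apart from mating. The labels give both Day 4 of pregnancy and cells prepared from uterine horns of 5 to 10 pseudopregnant mice, plated for some hours before the assay. The study calls the libraries of an antibody biological replicates, and the labels do not say whether they came from separate cultures or mice, so a p-value measures only the spread between these libraries. The peak lists rested on 11506964 to 14595089 BRG1 fragments and 8868777 to 16505239 PBRM1 fragments per library. A reproducible BRG1 peak lay within 2 kb of a TSS of 7 of 8 stromal, 4 of 6 epithelial, 3 of 4 endothelial and 0 of 4 immune marker genes. Such a peak lay at 62.4% of all protein-coding genes. BRG1 at promoters thus did not by itself set stroma apart from epithelium or endothelium.

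The DNA at the strongest peak of a group shows what these sites are made of. For 5 of the 7 largest groups, 300 bases around the summit of the peak with the highest BRG1 fold enrichment are given, on the plus strand of mm10 (RefSeq GRCm38.p6), with the summit at base 151. Fold enrichment is the fragment pileup at the summit over the local background of the same library. Capitals mark exact matches on either strand to 6 motifs, AP-1 (TGANTCA), ETS (CCGGAA), palindromic E-box (CAGCTG), NFI (TTGGCA), CTCF core (CAGGGGG) and GC box (GGGCGG). They were picked after their shares were seen, as those found in at least 5% of members and at least 1.4 times as often as in flanking DNA. The groups are named by the protein-coding gene nearest to most of their summits, and the windows were chr2:30744027-30744326 (*1700001O22Rik*), chr2:27802596-27802895 (*Col5a1*), chr10:59899615-59899914 (*Dnajb12*), chr17:46073892-46074191 (*Mrps18a*) and chr2:173340016-173340315 (*Pmepa1*).
1700001O22Rik: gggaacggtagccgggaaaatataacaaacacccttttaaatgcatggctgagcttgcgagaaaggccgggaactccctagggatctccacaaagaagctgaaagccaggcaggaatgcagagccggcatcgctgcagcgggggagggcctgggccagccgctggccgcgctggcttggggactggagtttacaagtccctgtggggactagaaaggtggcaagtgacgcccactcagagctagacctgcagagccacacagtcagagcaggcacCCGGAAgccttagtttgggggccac
Col5a1: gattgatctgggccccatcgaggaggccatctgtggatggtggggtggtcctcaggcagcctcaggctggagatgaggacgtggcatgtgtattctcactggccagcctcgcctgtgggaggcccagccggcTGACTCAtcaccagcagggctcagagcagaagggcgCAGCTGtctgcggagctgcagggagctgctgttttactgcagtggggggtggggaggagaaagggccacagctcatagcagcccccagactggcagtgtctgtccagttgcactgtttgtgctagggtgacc
Dnajb12: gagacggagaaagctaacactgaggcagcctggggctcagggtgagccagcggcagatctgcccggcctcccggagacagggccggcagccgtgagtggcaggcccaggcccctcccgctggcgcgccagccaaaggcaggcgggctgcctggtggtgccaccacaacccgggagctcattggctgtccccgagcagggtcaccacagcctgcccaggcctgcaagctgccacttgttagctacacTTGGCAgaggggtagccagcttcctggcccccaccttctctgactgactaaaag
Mrps18a: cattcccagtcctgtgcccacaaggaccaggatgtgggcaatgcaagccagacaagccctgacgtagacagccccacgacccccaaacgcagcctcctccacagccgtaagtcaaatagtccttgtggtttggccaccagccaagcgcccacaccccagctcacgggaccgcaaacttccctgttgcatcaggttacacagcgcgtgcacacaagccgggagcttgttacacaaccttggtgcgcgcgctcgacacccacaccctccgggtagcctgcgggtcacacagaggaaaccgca
Pmepa1: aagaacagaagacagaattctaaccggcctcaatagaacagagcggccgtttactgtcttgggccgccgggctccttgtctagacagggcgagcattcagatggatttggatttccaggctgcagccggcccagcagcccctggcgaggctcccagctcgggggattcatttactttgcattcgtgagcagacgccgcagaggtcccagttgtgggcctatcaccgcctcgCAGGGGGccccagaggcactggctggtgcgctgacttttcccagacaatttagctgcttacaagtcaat

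The *Mrps18a* window lay in an intron and the other 4 were intergenic. G and C made up 57.7% of the *Pmepa1* window, the lowest, and 67.0% of the *Dnajb12* window, the highest. The *Col5a1* window held 2 matches, an AP-1 site and a palindromic E-box on either side of the summit. There was 1 match in each of *1700001O22Rik* (ETS), *Dnajb12* (NFI) and *Pmepa1* (CTCF core), and the *Mrps18a* window had none of the 6 motifs. CpG dinucleotides ranged from 6 in the *Col5a1* window to 17 in the *Mrps18a* window. No single marked motif was thus shared by all 5 of these sites.

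Most groups were small. There were 76 groups of 3 peaks, 18 of 4, 6 of 5, 2 of 6 and 1 of 7. A group spanned 16203 bp at the median, from 1764 bp near *Wnt11* to 46022 bp near *Pmepa1*, and its member peaks covered 1991 bp of it at the median (1123 to 4377 bp). The 246 gaps between neighbouring members had a median of 6475 bp, and 37 of them (15.0%) were under 1000 bp. When members within 1000 bp of each other were merged into 1 site, 81 of 103 groups still had 3 or more sites. The widest gap inside a group was 12496 bp, in the *Pmepa1* group, and the narrowest gap that kept smaller groups from being joined into one of 3 or more was 12502 bp. The member closest to a TSS lay 2054 bp away, near *Zfp423*, and the reproducible peak just inside the promoter distance lay at 1994 bp.

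**Figure D1:**
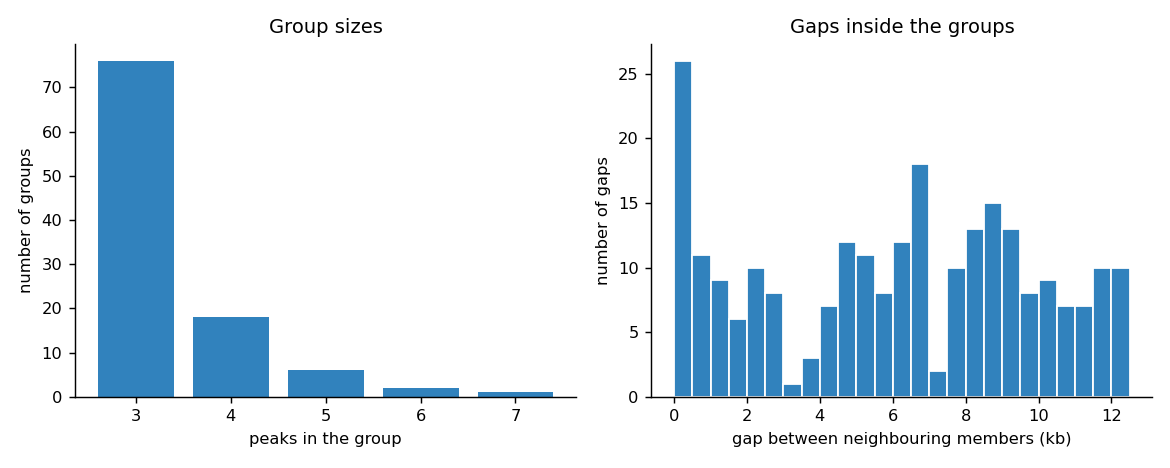
Left, number of groups (y axis) by number of member peaks (x axis). Right, number of gaps (y axis) between neighbouring members by gap length in kb (x axis, bins of 0.5 kb). Groups of 3 make up 76 of 103, and gaps are spread from 156 to 12496 bp with the fullest bin at the shortest lengths.

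Chromosome 2 carried the most groups, 11 with 41 peaks, followed by chromosome 5 with 10 groups and 34 peaks. As a share of each chromosome's distal reproducible peaks, chromosome 18 had the highest value (9.55%, 21 of 220) and chromosome 9 the lowest of those with a group (1.55%, 6 of 387). Of the 103 groups, 22 lay within 200000 bp of another group. Summits were intergenic for 205 of 349 members (58.7%, 95% Wilson interval 53.5 to 63.8%), in introns for 137 (39.3%, 34.3 to 44.5%) and in exons for 7 (2.01%, 0.975 to 4.08%). Among isolated peaks the shares were 48.4% intergenic, 44.1% intron and 7.47% exon. These and the other intervals cover counting error only. In 52 groups every summit was intergenic and in 34 every summit was intronic. Of all groups, 31 lay wholly within the body of a protein-coding gene, some of them within overlapping genes.

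The largest group, of 7 peaks at chr18:35918861-35942616, was intergenic and nearest to *Psd2*, a Sec7 domain guanine nucleotide exchange factor for ARF6. It was 1 of 10 groups, out of 103, with a TSS inside the span, more than 2 kb from every member. Its pooled BRG1 fold enrichments ran from 3.46 to 6.57, so it was the largest by number of peaks and not by height. Peaks of PBRM1 replicates 1, 2 and 3 lay on 4, 5 and 3 of its 7 members. The strongest member had BRG1 fold enrichments of 6.45, 5.95 and 6.13 in the 3 BRG1 replicates and PBRM1 fold enrichments of 5.70, 6.38 and 3.47 in the 3 PBRM1 replicates. CpG counts in the 150 bases to either side of the summit were 20 or more at 5 of its 7 members.

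The intergenic group of 6 at chr2:30743961-30785067 was nearest to *1700001O22Rik*, and *Prrx2*, a mesenchymal homeobox gene, had its TSS 49905 bp away. One outer member stood well above the rest, with a pooled BRG1 fold enrichment of 15.2 and 12.8, 10.7 and 14.4 in the BRG1 replicates, while the other 5 lay between 5.18 and 7.88. PBRM1 at that member gave 7.15, 6.64 and 6.01.

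Some groups of 5 had as nearest gene one of the matrix, of cytokine signalling or of TGF-β signalling. The *Col5a1* group (chr2:27793393-27828518, intergenic) was split between *Col5a1*, a fibrillar collagen chain nearest to 3 of its summits at 58697 bp or more, and *Rxra*, a retinoid receptor nearest to the other 2 at 53431 and 62545 bp. Its fold enrichments of 6.46 to 10.96 were the highest range among the groups of 5. The *Hspg2* group (chr4:137473720-137495423) lay in introns of the gene for perlecan, a basement membrane proteoglycan, and had the lowest mean height of the 10 largest groups, with members of 2.67 to 5.34. The *Socs3* group (chr11:117930755-117950143) lay 19245 bp or more from the gene, a feedback inhibitor of cytokine and STAT3 signalling, and a PBRM1 peak lay on all 5 members in replicate 1 and on 4 in replicates 2 and 3. *Pmepa1*, a TGF-β-induced inhibitor of the same pathway, had the widest group (chr2:173340050-173386071), with summits 63633 bp or more from the gene. Among the 10 largest groups PBRM1 varied most between libraries there, with 0, 2 and 4 of 5 members carrying a peak in replicates 1, 2 and 3, and the strongest BRG1 member (6.87) had a PBRM1 peak in none of the replicates.

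The other 2 groups of 5 each had summits nearest to different genes. The intergenic group at chr10:59899323-59921619 was nearest to *Dnajb12*, an HSP40 co-chaperone, with its last summit nearer to the stress-induced gene *Ddit4*. At chr17:46053386-46086835, 3 summits were nearest to *Mrps18a*, a mitochondrial ribosomal protein gene, and 2 to *Vegfa*, the angiogenic growth factor, whose TSS was 21017 bp from the group. The strongest of these members had BRG1 fold enrichments of 7.89, 8.32 and 8.54 and PBRM1 fold enrichments of 3.52, 3.16 and 4.50. At *Fgfr4* (chr13:55168796-55190693), a fibroblast growth factor receptor, 4 peaks included the highest member of all, with a pooled fold enrichment of 15.6 and 12.2, 14.9 and 13.7 in the BRG1 replicates. That member was nearest to *Nsd1*, a histone methyltransferase gene, and also had high PBRM1 values of 11.8, 8.61 and 8.11.

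**Figure D2:**
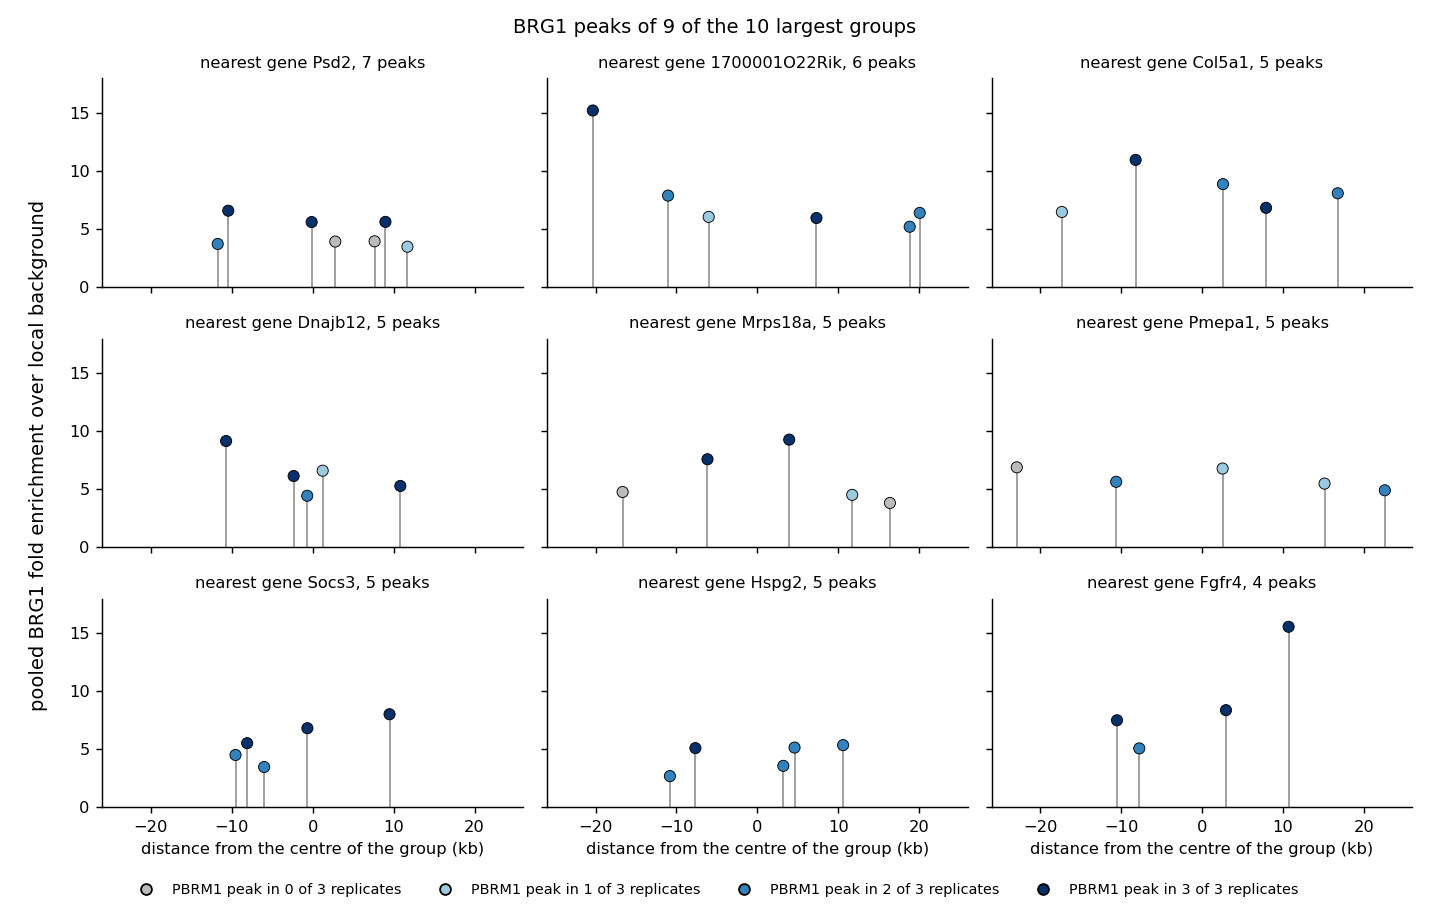
Member peaks of 9 of the 10 largest groups, with distance of the summit from the group's centre in kb (x axis) and pooled BRG1 fold enrichment (y axis). Each stem with its dot is 1 BRG1 peak, and the colour of the dot gives how many of 3 PBRM1 replicates had a peak there. One member near 1700001O22Rik (15.2) and one near Fgfr4 (15.6) stand far above the others. Grey dots, with a PBRM1 peak in none of the replicates, appear in the Psd2, Mrps18a and Pmepa1 groups.

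By mean height the leading groups were not the largest. The 3 peaks in introns of *Kcnn3*, a calcium-activated potassium channel gene, had the highest mean fold enrichment, 11.1 (chr3:89593556-89614282), followed by the *Fgfr4* group at 9.12 and the *Jdp2* group at 9.10 (chr12:85532408-85548610). All 3 *Kcnn3* members had a PBRM1 peak in every replicate, and their fold enrichments in the first PBRM1 replicate were 4.03, 5.15 and 6.66. The *Jdp2* group lay between *Jdp2*, a repressor of AP-1, and *Fos*, an AP-1 subunit, whose TSS was 57497 bp from the group and was the nearest one for 1 summit. Within a group the highest member was 1.68 times the lowest at the median, with a range of 1.12 to 3.62 times.

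The members as a class had more BRG1 fragments but less enrichment over their surroundings than isolated peaks. Pooled BRG1 pileup was 62 fragments at the median of clustered peaks, 53 in groups of 2 and 42 for isolated peaks. Median pooled fold enrichment went the other way, 5.72 (range 2.57 to 15.6), 6.17 and 6.69, and the same order of clustered and isolated peaks was seen in each BRG1 replicate, 5.27 against 5.65, 5.16 against 5.57 and 5.24 against 5.63. The background of the fold enrichment is taken from up to 10 kb of the same library, and 166 of 349 members (47.6%) had another member within 5000 bp. How far neighbouring members raise each other's background was not tested. Peak lengths were alike, with medians of 585, 589 and 582 bp.

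PBRM1 was not used to choose the members and can be compared. A PBRM1 peak of replicate 1, 2 or 3 lay on 224, 256 and 214 of 349 clustered peaks, which is 64.2%, 73.4% and 61.3%, against 50.1%, 61.1% and 53.5% of all distal reproducible BRG1 peaks. For isolated peaks the shares were 47.9%, 59.4% and 52.2%, and for groups of 2 they were 56.3%, 65.6% and 57.5%. In groups of 4 or more they reached 70.2%, 74.4% and 65.3%. Clustered peaks thus carried PBRM1 more often than isolated ones in 3 of 3 libraries, by 13.1 ± 3.64 percentage points (mean ± SD, n = 3 libraries, two-sided exact permutation test by sign flips, p = 0.25, the smallest that 3 libraries allow). Clustered peaks also exceeded peaks in groups of 2 by 6.49 ± 2.34 points and those exceeded isolated peaks by 6.60 ± 1.57 points, both in 3 of 3 libraries (exact permutation p = 0.25). These comparisons were 7 tests in all and none could pass a threshold of 0.05, so adjustment would change no call.

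**Figure D3:**
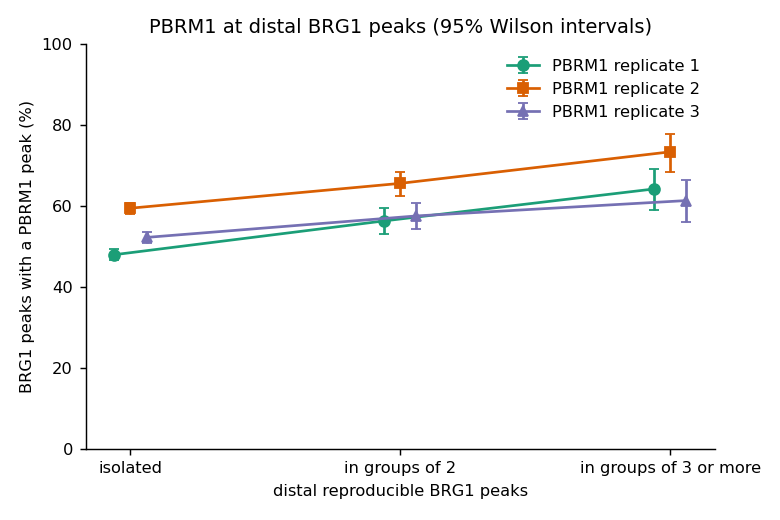
Percent of distal reproducible BRG1 peaks overlapping a PBRM1 peak (y axis) for isolated peaks, peaks in groups of 2 and peaks in groups of 3 or more (x axis), 1 line for each PBRM1 replicate. Bars are 95% Wilson intervals, which cover counting error only, and each of the 3 lines is highest for groups of 3 or more (64.2, 73.4 and 61.3%).

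The difference depended on which measure of BRG1 strength was held fixed. Within 5 equal bins of pooled BRG1 fold enrichment it was 17.8 ± 3.68 points (21.3, 18.2 and 14.0 in the 3 libraries, exact permutation p = 0.25). Within 5 equal bins of pooled BRG1 pileup, an alternative added after the data were seen, it was −2.74 ± 2.95 points (−0.572, −1.55 and −6.09, exact permutation p = 0.25), so averaged over the bins clustered peaks had a PBRM1 peak no more often than isolated peaks of like pileup. Pileup differed between the classes, with 38.4% of clustered and 16.3% of isolated peaks in the highest bin (71 fragments or more). There the mean share with PBRM1 was 84.6% for clustered and 87.6% for isolated peaks. In the lowest bin it was 40.5% for 14 clustered peaks and 27.4% for isolated peaks.

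**Figure D4:**
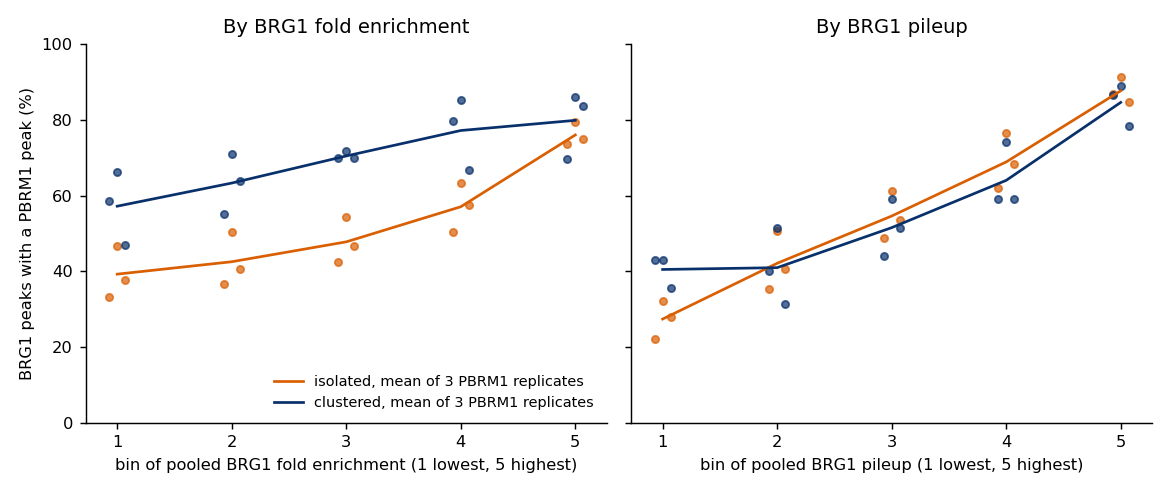
Percent of BRG1 peaks with a PBRM1 peak (y axis) by bin of pooled BRG1 fold enrichment (left) or pooled BRG1 pileup (right), lowest to highest. Points are the 3 PBRM1 replicates and lines their mean, for clustered (blue) and isolated (orange) peaks. By fold enrichment the clustered line lies above the isolated one and comes nearest to it in the highest bin (79.8 and 76.0%), and by pileup it lies above in the lowest bin (40.5 and 27.4%) and below in the others.

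In the pooled PBRM1 list, which rests on the fragments of all 3 libraries, 339 of 349 members (97.1%, Wilson interval 94.8 to 98.4%) overlapped a peak, against 93.4% of all distal reproducible BRG1 peaks. The summits of both factors were 57 bp apart at the median of these members, as at isolated peaks. A peak in all 3 PBRM1 replicates was found at 147 members (42.1%), against 31.1% of all distal peaks and 29.2% of isolated ones. Another 94 members had it in 2 replicates, 65 in 1 and 43 in none. The 10 members without a pooled PBRM1 peak lay in 10 different groups, and those named here, after the values were seen, were *Ets2*, *Fam170b*, *Fam92b*, *Gm26897*, *Lhx2*, *Lrrk1*, *Psd2*, *Sh3pxd2a* and *Tarbp1*. Their BRG1 fold enrichments ran from 3.34 to 9.57, the highest near *Lhx2*.

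Seen by group, 93 of 103 had a pooled PBRM1 peak at every member. A peak in all 3 replicates at every member was found in 11 groups and at no member in 23. The 11 groups were named after the values were seen and lay nearest to *Irf2bpl* and *Wasf2* (4 peaks each), *Kcnn3*, *Ppm1a*, *Bahcc1*, *Haao*, *Gng7*, *Cpn2*, *Ctbp1*, *Wnt7b* and *Gadd45b* (3 peaks each). *Ctbp1* is a transcriptional corepressor, *Wasf2* an activator of actin branching and *Gadd45b* a stress-response gene. Their mean BRG1 fold enrichment spanned 4.46 at *Gadd45b* to 11.1 at *Kcnn3*, so complete PBRM1 occupancy was not limited to the strongest groups. The spans of the 103 groups also held 411 pooled PBRM1 peaks, of which 72 (17.5%) lay off every member, and 102 pooled BRG1 peaks that were not members.

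PBRM1 was found more often at the peaks where BRG1 was strongest in their group. The shares were taken over all groups together and not group by group. The leading member, with the highest pooled BRG1 fold enrichment, had a PBRM1 peak in 72.8%, 86.4% and 72.8% of 103 groups, and the other 246 members in 60.6%, 67.9% and 56.5%. The difference was 15.7 ± 3.18 points and positive in 3 of 3 libraries (exact permutation p = 0.25, the smallest possible). Leading members also had the higher pileup, 82 against 59 fragments at the median, and its part in the difference was not tested. Where a PBRM1 peak was present, its height did not follow the same order. Median PBRM1 fold enrichment at clustered peaks was 5.23, 4.72 and 4.37 in the 3 libraries and at isolated peaks 5.36, 5.09 and 4.62, a difference of −0.25 ± 0.121 (exact permutation p = 0.25). Within the bins of BRG1 fold enrichment this difference was 0.0743, positive in only 2 of 3 libraries. Within the bins of pileup it was −0.614, negative in 3 of 3 libraries.

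The members' DNA was rich in G and C. The window of 150 bases to either side of a summit held 58.1% G or C at the median of clustered peaks, 56.1% in groups of 2 and 54.5% at isolated peaks, and the flanks 2000 bp downstream held 50.2%, 48.5% and 46.5%. There were 20 or more CpG dinucleotides at 49 of 349 members (14.0%) and at 466 of 5073 isolated peaks (9.19%). The most common of 18 motifs was the palindromic E-box CAGCTG, bound by several basic helix-loop-helix factors, in 35.5% of members, 15.2% of their flanks and 34.6% of all distal windows. The GC box GGGCGG, bound by SP and KLF factors, was in 30.1% of members (95% Wilson interval 25.5 to 35.1%), 6.30% of flanks, 23.6% of isolated peaks and 24.6% of all distal windows. It occurred at 2 or more members in 30 groups.

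AP-1 and TEAD motifs were less frequent at members than at isolated peaks, within counting error for AP-1. AP-1 (TGANTCA) matched in 13.8% of clustered (95% Wilson interval 10.5 to 17.8%), 17.2% of paired and 17.6% of isolated windows, 17.3% of all distal ones, with 9.74% in the members' flanks. TEAD (GGAATG), the partner of YAP, matched in 12.0% (9.03 to 15.9%), 16.3% and 17.3%, and in 16.9% of all distal windows. Its shares in the flanks ran in the same order, 12.9% for members, 14.9% for paired and 15.75% for isolated peaks. CATCTG, an E-box of HAND and TWIST factors, was in 30.4% of members and 23.5% of flanks. Its shares at isolated peaks (28.4%) and in all distal windows (28.7%) were close to that of members. The steroid receptor site ACANNNTGT was in 5.73% of members, 9.46% of flanks and 7.21% of all distal windows. The C/EBP (TTGCGCAA) and HOX/PBX (TGATTGAT) motifs had 0 matches in members. They were in only 0.203% and 0.297% of all distal windows, so nothing is read from these zeros. AP-1 matches were found in 12.2% of the members with PBRM1 in all 3 replicates and in 14.9% of the others. Both strands were searched, matches may overlap, and a match is a description of the letters and not of binding.

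**Figure D5:**
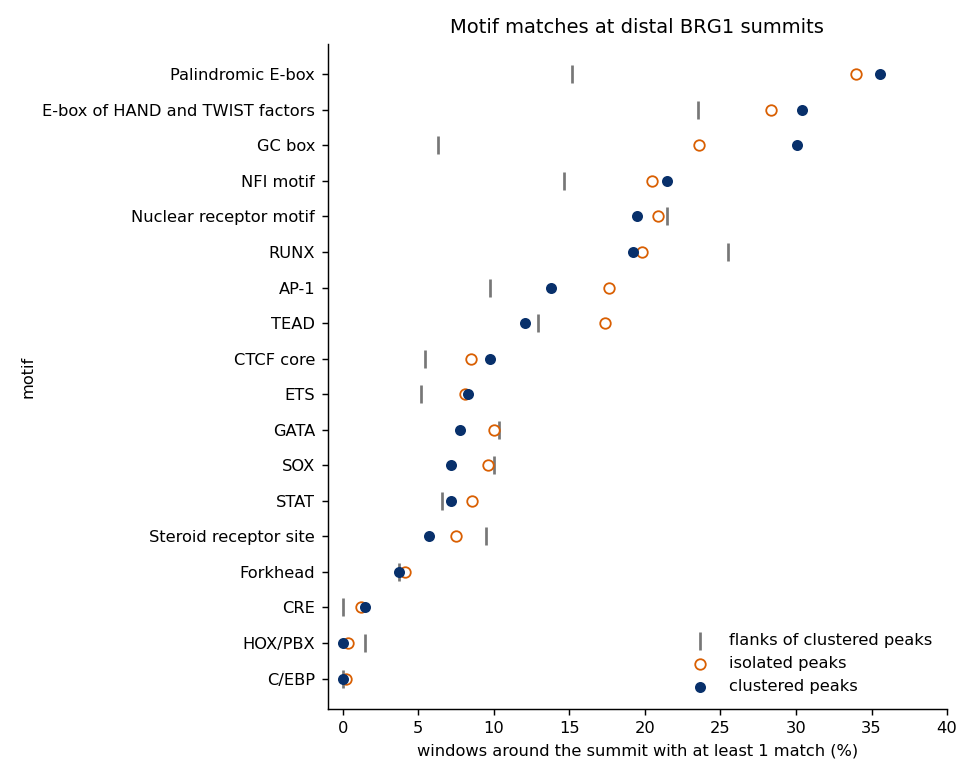
Percent of windows of 150 bases to either side of the summit with at least 1 exact match (x axis) for 18 motifs (y axis) at clustered peaks (filled blue), isolated peaks (open orange) and the flanks of clustered peaks (grey bars). The GC box (30.1 against 6.30%) and the palindromic E-box (35.5 against 15.2%) stand farthest from their flanks, and AP-1 and TEAD are lower at clustered than at isolated peaks.

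The 103 groups lay nearest to 100 protein-coding genes, 0.481% of the 20780 on these chromosomes, and 356 genes (1.71%) had a TSS within 100 kb of a group. All summits of a group shared 1 nearest gene in 82 groups. The nearest summit was within 10 kb of a coding TSS in 42 groups and over 100 kb away in 7, and 43 groups (41.7%) had a reproducible BRG1 promoter peak inside them or within 12.5 kb. Genes with several groups were *Sh3pxd2a*, a podosome scaffold gene with 4 and 4 intronic peaks, *Med13l*, of the Mediator kinase module, with 3 and 3 intergenic peaks, and *Gse1*, with 3 and 3 intronic peaks. A nearest gene is a statement of position only. No expression was measured in these libraries.

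Extracellular matrix genes made up the largest count of any list. The lists were chosen with earlier results of these data known, so their counts are given as description, with no test. The share of all genes set beside them also includes genes nearest to no distal peak. Of 52 matrix genes, 5 were nearest to a group (9.62%, against 0.481% of all genes), and 29 were nearest to at least 1 distal reproducible peak. Besides *Col5a1* and *Hspg2* these were *Col1a1*, the main fibrillar collagen, with 4 intergenic peaks 53458 bp or more from its start, *Eln*, elastin, with 3, and *Col4a1*, a basement membrane collagen, with 3 in its introns. *Col4a1* falls outside the rule for named genes and is given to complete the count. *Prelp*, nearest to a group of 3 peaks, is not in this list and is not counted. At *Col1a1* the strongest member had BRG1 fold enrichments of 8.66, 7.89 and 9.25 and PBRM1 of 7.63, 7.09 and 4.83, and 3 of its 4 members had PBRM1 in every replicate. At *Eln* the strongest member (8.00, 10.5 and 11.6 for BRG1) had PBRM1 in every replicate at 9.98, 5.74 and 4.06, while the member at 6.47 had no PBRM1 peak in any replicate.

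Transcription factor genes of mesenchyme and uterus had 3 of 80 members nearest to a group (3.75%, against 0.481% of all genes). *Snai1*, a driver of mesenchymal transition, named a group of 4 peaks from 8780 bp onwards with fold enrichments of 4.72 to 8.77. The strongest of these was nearest to *Ube2v1*, at 35634 bp. *Ets2* had 4 weaker peaks of 3.98 to 5.45 in introns 96958 bp or more away. *Nr2f2*, which encodes the P4-responsive stromal receptor COUP-TFII, had 3 peaks as far as 258113 to 267535 bp away, where PBRM1 replicate 2 had a peak on all 3 and replicate 1 on none. *Hand2* is in this list and was not nearest to a group. None of 47 P4 and implantation genes was nearest to a group or within 100 kb of one, and since 0.481% and 1.71% of all genes were, nothing is read from this zero. Of these genes 17 were nearest to a distal reproducible BRG1 peak.

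Signalling genes were represented by 1 or 2 members of each list, with 0.481% of all genes nearest to a group. TGF-β and BMP genes gave 2 of 43 (4.65%), *Tgfbr2* and *Id1*. *Tgfbr2*, the type II receptor, had 3 peaks 200781 bp or more away, and *Id1*, a BMP target, had 3 peaks from 3319 bp. No *Tgfbr2* or *Id1* member had PBRM1 in all 3 replicates. Growth factor and receptor kinase genes gave 2 of 58 (3.45%), *Ror2*, a receptor for Wnt5a, and *Ephb2*, an ephrin receptor, both with 3 peaks inside the gene. Wnt genes gave 1 of 40 (2.50%), *Wnt11*, although *Wnt7b* and *Wnt10a*, which are not in that list, were nearest to groups of 3 and 4 peaks. Adhesion genes gave 1 of 42 (2.38%), *Ncam1*, at 175358 bp or more. AP-1 and immediate early genes gave 1 of 28 (3.57%), the orphan nuclear receptor gene *Nr4a1*, and actin, YAP and SRF genes gave 1 of 55 (1.82%), *Actb*. The group genes *Fgfr4*, *Nrg2*, *Jdp2* and *Pmepa1* are in none of the lists, so the counts do not cover every gene of each kind.

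Lists of other cell types gave 1 gene in all. Of 24 epithelial genes 1 (4.17%, against 0.481% of all genes) was nearest to a group, *Cldn4*, a tight junction gene, with 3 intergenic peaks from 4490 bp, and *Cldn3* lay 19557 bp from the same group. Endothelial and immune genes (20), SWI/SNF subunit genes (26) and neuronal genes (20) had 0 members nearest to a group or within 100 kb of one, where the shares of all genes (0.481% and 1.71%) would give less than 1 gene each, so nothing is read from these zeros. How much epithelial DNA the stromal preparations held was not tested. Other listed genes with a TSS within 100 kb of a group included *Cebpb* at 65004 bp, *Actg1* at 30244 bp, *Wnt6* at 20558 bp and *Wnt9a* at 40817 bp, besides *Prrx2* given above.

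Promoters of the groups' nearest genes were often bound as well. A reproducible BRG1 peak lay within 2 kb of a TSS of 88 of 100 of them (88.0%), against 62.4% of all protein-coding genes and 77.1% of 3521 genes nearest to an isolated peak and to no group. PBRM1 promoter peaks of replicates 1, 2 and 3 were found at 87.0%, 82.0% and 77.0% of group genes, against 76.8%, 77.1% and 68.4% of genes near isolated peaks and 61.6%, 62.3% and 56.9% of all genes. The group genes were higher in all 3 PBRM1 libraries. These shares were not tested, since genes are not replicates.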

How the data were processed

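ChIC-Seq fragments were processed by the authors, who trimmed read pairs, aligned them to GRCm38/mm10 with Bowtie2, removed multimapping and duplicate reads and called peaks with MACS 2.2.7.1 at a q-value of 0.05 with no control file, per replicate and on the pooled fragments of each antibody. The deposited peak lists give the pileup signal at the summit, −log10 p- and q-values, and fold enrichment as the ratio of pileup to the local background of the same library. None of these is scaled between libraries. The members and gene lists were chosen with earlier results of these data known. Overlap meant at least 1 shared base. TSSs of all transcripts came from GENCODE M21, and sequence from RefSeq GRCm38.p6. Python 3.11.15, pandas 2.3.3, SciPy 1.17.1 and pysam 0.24.0 were used. Shares were compared within each PBRM1 library and tested over the 3 libraries by exact sign flips. Replicate numbers of the Brg1 and Pbrm1 antibodies pair nothing in the labels. Flanks were windows of the same length centred 2000 bp downstream of the summit, and 24 of 349 overlapped a pooled BRG1 peak. Named groups were the 10 with most peaks, the 3 of highest mean fold enrichment and up to 4 genes per list. Overlap, stitching and sign flips were tested on simulated data. Alternatives changed the gap, TSS distance, group size, overlap, q-value, TSS set, window, strength strata and the replicates used. The IgG libraries were not analysed here. 1 of the 10 largest groups is not reported here.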

Additional observations from a re-analysis of the deposited data

How the results depend on the processing

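The number of members depended strongly on the rule. Gaps of at most 5000 bp left 54 peaks in 17 groups near 17 genes, with 14.8% of peaks in introns, and gaps of at most 20000 bp gave 762 peaks, 221 groups and 212 genes. Groups of 4 or more held 121 peaks in 27 groups near 26 genes (32.2% in introns). An overlap of at least 50% of the BRG1 peak left 55 peaks, 17 groups and 17 genes, and TSSs of protein-coding transcripts alone gave 597 peaks, 172 groups and 164 genes. Leaving out each BRG1 replicate in turn gave 488 to 689 peaks, 145 to 204 groups, 140 to 195 genes and 92.3 to 94.9% of members with pooled PBRM1; replicates 2 and 3 each moved the counts by over 1.5 times (685 peaks without replicate 2, 689 without replicate 3), since fewer replicates then had to hold a peak. Counting every gene with a TSS within 100 kb gave 356 genes. With PBRM1 peaks of −log10 q of at least 5 the pooled share was 91.1%. AP-1 shares were 8.88% in windows of 100 and 19.5% in windows of 250 bases to either side of the summit. The clustered minus isolated difference in PBRM1 share kept its direction in 19 alternatives and reversed within 5 bins (−2.74 points) and 10 bins (−3.64 points) of BRG1 pileup, both added after the data were seen; the cause was not tested. The difference in PBRM1 fold enrichment was 0.0743 within 5 bins of BRG1 fold enrichment, with libraries of both signs (2 of 3 positive). It was −0.614 within 5 bins of pileup. No alternative changed the side of the threshold, which 3 libraries cannot pass. No paired analysis was possible because PBRM1 and BRG1 libraries were not compared with each other and their numbers pair nothing. That statement concerns only the pairing of a PBRM1 library with a BRG1 library. The tests given here compared classes of peaks within each PBRM1 library, by sign flips of the within-library differences.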
